A study of Saccharomyces cerevisiae with 6 samples.

Results

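The 56 genes described here encode 7 subunits of RNA polymerase I and 49 factors that process ribosomal RNA and assemble ribosomal subunits in Saccharomyces cerevisiae. They were taken from a list, and each was placed by its midpoint in a 10 kb bin of a Hi-C contact map, so that the 56 genes occupy 56 different bins of 1216 nuclear bins. Hi-C counts how often fragments of chromosomes are ligated to each other after fixation, here after digestion with DpnII. The 2 replicate maps of strain yMD291 (map 1 and map 2) were used, from haploid MATa cells grown without methionine. The strain has tor1-1, fpr::NAT and bar1, the nutritional markers ade2-1, ura3-1 and trp1-1 with his3-11,15 and a leu2 allele, and also can1-100. From the REV1 promoter it expresses tetR-mCherry and LacI-GFP fusions at HIS3, and LacI and tetR without a fluorescent tag at ADE2. On chromosome XV a LacO array was inserted at position 497047, and TetO repeats were inserted at position 834487, which lies in the bin of YTM1. Both maps come from this strain and condition, so no comparison between conditions was made. A further 4 Hi-C samples, from strains with or without LacO repeats at YBP2, were not analysed here.

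Ribosome biogenesis begins in the nucleolus, where RNA polymerase I transcribes the tandem rDNA repeats of chromosome XII into a long precursor. Small nucleolar ribonucleoproteins (snoRNPs) modify this precursor, the UtpA, UtpB and Mpp10 complexes with the U3 snoRNP form the small subunit processome on it, and the PeBoW complex, RNA helicases and GTPases mature the large subunit. In yeast these genes are scattered over the genome, are transcribed by RNA polymerase II and are regulated together, many through the PAC and RRPE promoter elements. Yeast centromeres are tethered together at the spindle pole body (the Rabl configuration), so contacts between chromosomes depend strongly on distance to the centromere.

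The 2 promoter elements were common in these genes. The PAC core GATGAG was found on either strand within the 300 bases before the start codon of 52 of the 56 members, against 1148 of 6001 protein-coding genes (19.1%). The RRPE core AAAAATTT was found in 48 members, against 908 of 6001 genes (15.1%), and both elements together in 46 members, against 336 of 6001 genes (5.6%). The Reb1 motif TTACCCG occurred in 9 members and in 474 of 6001 genes (7.9%). RPA12 and UTP22 held neither PAC nor RRPE in this window. The stretches below are from the R64 genome, written 5′ to 3′ along the strand of the gene, with PAC and RRPE cores in capitals (overlapping RRPE cores on both strands merge into 1 run). They are shown for the pair with the highest ratio between chromosomes (DBP9 and ERB1), for a pair of members beside centromeres (UTP20 and MPP10), and for 2 subunits of RNA polymerase I, RPA43 and RPA190, which are transcribed away from each other from an 804-base intergenic region.
DBP9 (chrXII:696950-697045, minus strand): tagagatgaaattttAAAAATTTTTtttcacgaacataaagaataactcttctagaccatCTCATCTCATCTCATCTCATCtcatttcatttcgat
ERB1 (chrXIII:370590-370649, minus strand): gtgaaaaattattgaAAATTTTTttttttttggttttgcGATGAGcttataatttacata
UTP20 (chrII:227411-227484, plus strand): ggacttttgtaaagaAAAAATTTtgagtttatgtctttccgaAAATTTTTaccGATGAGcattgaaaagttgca
MPP10 (chrX:438775-438810, plus strand): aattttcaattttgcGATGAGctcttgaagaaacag
RPA43 (chrXV:960315-960379, minus strand): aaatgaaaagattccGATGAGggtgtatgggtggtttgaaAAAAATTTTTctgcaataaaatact
RPA190 (chrXV:960749-960840, plus strand): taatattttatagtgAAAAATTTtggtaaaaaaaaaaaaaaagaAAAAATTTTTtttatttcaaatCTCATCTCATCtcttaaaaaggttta
DBP9 carried 4 PAC and 2 RRPE cores, ERB1 1 of each, UTP20 1 PAC and 2 RRPE cores, MPP10 1 PAC core and no RRPE core, RPA43 1 PAC and 2 RRPE cores, and RPA190 2 PAC and 3 RRPE cores. The stretches of DBP9, MPP10 and RPA190 lie in the bins used for these genes, whereas those of ERB1, UTP20 and RPA43 lie in the neighbouring bin, since a gene was placed by its midpoint. For 8 members the start lies in another bin than the midpoint, and with genes placed by their start DBP9 with ERB1 had a ratio of 0.769.

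The members lie on 13 of the 16 chromosomes, with 8 on IV, 7 each on XII and XIV, 6 each on VII and XV, and none on III, VI or IX. A bin entered the comparisons if 0.5 or more of its partners on other chromosomes had a value in each map. Of 1195 nuclear bins with a value, 1086 were kept, among them 49 of the 56 member bins. The bins of UTP20, MPP10, RLP7, DRS1, NUG1, RPA135 and RRP9 did not pass, and their values below come from the bins as deposited. The first 6 of these genes lie within 24 kb of a centromere, from 2.16 kb for RLP7 to 23.4 kb for RPA135, and RRP9 at 247 kb had few contacts, 2165 in map 1 and 1951 in map 2. The kept member bins had a median of 5163 contacts in map 1 and 4701 in map 2, against 5456 and 5084 over all kept bins. The median share of a bin's signal that fell on other chromosomes was 30.5% in map 1 and 30.8% in map 2 for member bins, against 31.9% and 31.6% for all kept bins. The maps held 3760159 and 3518507 contacts in all.

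The question was whether these genes contact each other more often than other loci in like positions. Signal is given as observed over expected (O/E). Between chromosomes the expectation was the mean over all pairs of kept bins whose distances to their centromeres fell in the same ranges, with bins less than 30 kb from a chromosome end set apart. Averaged over the 1076 member pairs, O/E was 0.937 in map 1 and 0.997 in map 2, or 0.967 ± 0.043 (SD, n = 2 maps), against a mean of 1 over all 544303 pairs by construction. Member bins with all other kept bins gave 0.979 in map 1 and 0.972 in map 2. Member bins thus had no more signal with each other than with the rest of the genome. In whole contacts, the member pairs held 3047 against 3172 expected, a ratio of 0.961 (95% Poisson interval 0.927 to 0.995, which covers counting error only). Of the 1076 pairs, 199 (18.5%) were above 1 in both maps, against 20.4% of all pairs, and 384 (35.7%) were below 1 in both, against 33.7% of all pairs.

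**Figure D1:**
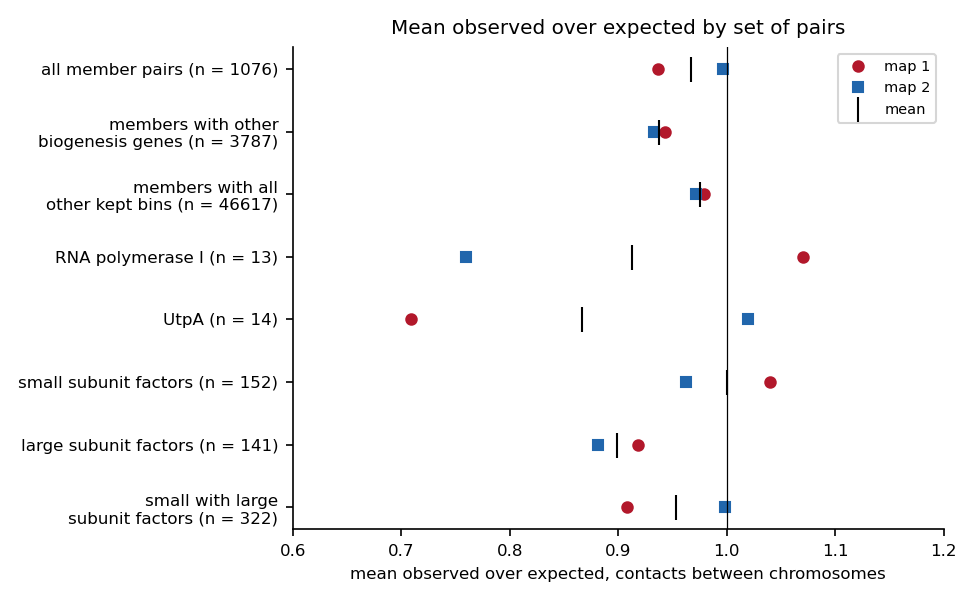
Mean observed over expected signal between chromosomes for sets of member pairs, with map 1 as circles, map 2 as squares, the mean as a bar and the number of pairs in brackets. The means of the 2 maps lie at or below 1 for the sets plotted, and the RNA polymerase I and UtpA pairs fall on both sides of 1 in the 2 maps.

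No member pair between chromosomes was called. A one-sided exact Poisson test over all 544303 pairs with Benjamini-Hochberg adjustment called 0 of 1076 member pairs at an adjusted p under 0.05, against 0.0408% of all pairs (222). At an unadjusted p under 0.05 there were 43 member pairs (4%) and 23379 pairs overall (4.3%). The median member pair had 2.79 expected contacts over both maps, and 13 contacts would have been needed to pass at that expectation. The values of single pairs did not repeat between the maps: over the 1076 pairs, which share bins and depth, Pearson's r was 0.0186 and Spearman's rho 0.0464.

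Among pairs above 1 in each map, the highest joined DBP9, a DEAD-box helicase of large subunit assembly, and ERB1, a subunit of PeBoW. It had 2 contacts in map 1 and 3 in map 2 against 1.17 expected over both, with O/E of 3.25 and 5.46. ERB1 also had 8 contacts with ENP2, a small subunit factor, against 2.48 expected (O/E 2.31 and 4.24). ENP1, a factor of the small subunit precursor, had 13 contacts with NOP13 against 4.33 expected (O/E 2.22 and 3.85), the lowest adjusted p of any member pair (0.34, exact Poisson test). ENP1 with GAR1, an H/ACA snoRNP protein, had 9 against 2.88 expected. Each of these pairs rested on 5 to 13 contacts. The other 6 of the 10 highest pairs were MAK16 with UTP5 (2 contacts), RLP24 with RRP5 (3), UTP7 with NOP56 (7), UTP7 with NOG1 (7), GAR1 with DBP9 (6) and NOP14 with EBP2 (7), with mean O/E between 2.87 and 3.43. With genes placed by their start, O/E was 0.769 for DBP9 with ERB1, 0.962 for ENP2 with ERB1, 1.09 for RLP24 with RRP5 and 0.525 for NOP14 with EBP2. With 1 expectation for all pairs, DBP9 with ERB1 had 1.84, MAK16 with UTP5 0.823 and RLP24 with RRP5 0.765.

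At the other end, 119 member pairs (11.1%) had no contact in either map, against 11.5% of all pairs. The 5 with the most expected contacts were NOP56 with RRP5 and RPA14 with RPA49 (4.46 expected each), MAK5 with CBF5 (3.92), CBF5 with NOP2 (3.7) and NOP7 with ERB1 (3.66). The upper 95% limits of their ratios were 0.827, 0.828, 0.942, 0.996 and 1.01. NOP7 and ERB1 encode 2 of the 3 proteins of PeBoW, and RPA14 and RPA49 encode 2 subunits of RNA polymerase I. With genes placed by their start, O/E was 1.72 for NOP7 with ERB1 and 0.931 for NOP56 with RRP5, and it stayed at 0 for the other 3 pairs.

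Genes whose products form 1 complex were then compared. The 13 pairs of RNA polymerase I subunit genes on different chromosomes averaged 1.07 in map 1 and 0.76 in map 2, a mean of 0.913 ± 0.216 (SD, n = 2 maps), with 43 contacts against 49.1 expected. RPA34 with RPA43, a stalk subunit, was the highest, with 3 contacts in each map against 3.33 expected over both (O/E 1.69 and 1.92). RPA12 with RPA190, the gene of the largest subunit, had 2 contacts in each map against 2.75 expected over both. RPA14 with RPA12 had 5 contacts in map 1 and 0 in map 2. The subunit genes with the 43 other kept members gave 0.895 in map 1 and 1.03 in map 2. The mean over pairs of subunit genes was 1.12 with genes placed by their start and 0.857 with no filter on bins. Each differed from 0.913 by less than the SD between maps, so the side of 1 was not settled.

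The 14 pairs of the 6 UtpA genes averaged 0.709 in map 1 and 1.02 in map 2, with 43 contacts against 47.7 expected. UTP9 with UTP15 was the highest of them, with 3 and 7 contacts against 4.41 expected over both maps, and UTP5 with UTP10 had none against 2.5 expected. Of the 3 PeBoW pairs, NOP7 with YTM1 had 3 contacts against 2.11 expected, and the midpoint bin of ERB1 had no contact with the bin of either partner. The 3 pairs of box C/D snoRNP genes (NOP1, NOP56 and NOP58) had 4 contacts against 5.1 expected, and the 3 H/ACA pairs (CBF5, GAR1 and NHP2) had 5 against 9.51 expected. IMP3 with IMP4, of the Mpp10 complex, had 1 contact in each map against 3.38 expected over both. The 3 pairs of helicase genes of large subunit assembly averaged 1.08 and 1.41, with 8 contacts against 6.43 expected. With so few contacts, only large differences from the expectation could have been seen in any single complex.

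Taken by subunit, the 152 pairs of small subunit factors averaged 1.04 in map 1 and 0.962 in map 2. The 141 pairs of large subunit factors averaged 0.918 and 0.881, with 379 contacts against 440 expected, a ratio of 0.861 (95% Poisson interval 0.777 to 0.953). The 322 pairs of a small with a large subunit factor averaged 0.908 and 0.998. The maps lay on both sides of 1 for the small subunit factors and below 1 in both maps for the large subunit factors. Member pairs in which both promoters held a PAC core (906 pairs) averaged 0.981 ± 0.063 (SD, n = 2 maps), and pairs in which only 1 did (164 pairs) averaged 0.896 ± 0.052. For RRPE the means were 0.97 ± 0.044 with the core in both promoters (821 pairs) and 0.966 ± 0.051 with it in 1 (241 pairs). For PAC the means with the core in both promoters and in 1 were 0.936 and 0.933 in map 1, and 1.03 and 0.859 in map 2. The difference for PAC thus lay in map 2 alone. For RRPE they were 0.939 and 0.929 in map 1, and 1 and 1 in map 2.

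The list of 98 other ribosome biogenesis genes did not give a higher level. The 49 kept member bins with the 84 kept bins of this list averaged 0.943 in map 1 and 0.933 in map 2 over 3787 pairs, a mean of 0.938 ± 0.007 (SD, n = 2 maps). Members with all other kept bins gave 0.979 and 0.972, so this set lay lower in both maps, a difference that was not tested. Of the 3787 pairs, 679 (17.9%) were above 1 in both maps, against 20.4% of all pairs and 19.1% of pairs of members with all other kept bins.

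Signals were also aggregated over windows of 70 kb on each side of the 1076 member pairs. The centre averaged 0.937 in map 1 and 0.997 in map 2. The 8 cells around it averaged 1 and 1.01, and the cells farther away 1.02 and 1.01. Of the 224 cells around the centre, which ran from 0.953 to 1.13, 216 were at or above it. No peak stood at the position of the members.

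**Figure D2:**
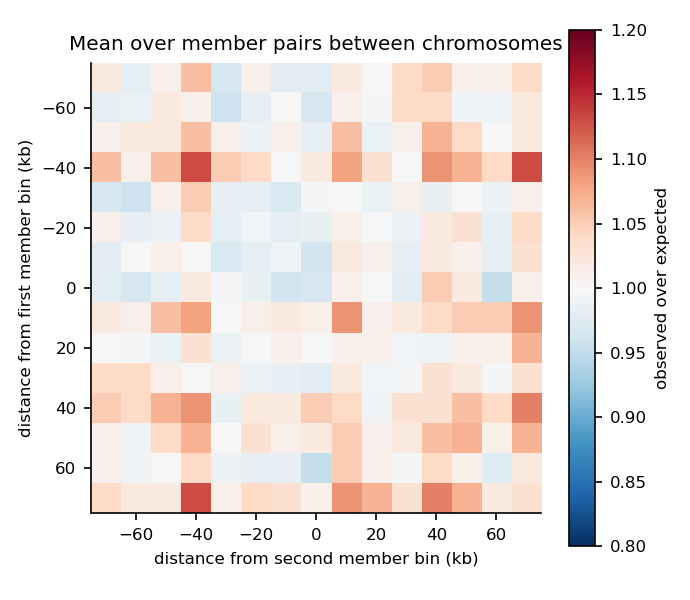
Mean observed over expected signal (mean of the 2 maps, colour) by distance in kb from the first and second member bin, over member pairs between chromosomes, made symmetric about the diagonal. The centre, at 0.967, is lower than most of the surrounding cells, which reach 1.13.

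Each bin's contacts with all member bins on other chromosomes were then summed, which gives about 100 contacts per bin and a closer view of single genes. No member bin was called as higher (0 of 49, against 2.58% of 1086 bins, one-sided exact Poisson test with Benjamini-Hochberg adjustment), and 1 member bin, ENP2, had an unadjusted p under 0.05, against 113 of all bins. Over the 49 member bins the ratio of observed to expected contacts ran from 0.722 to 1.15 with a median of 0.978, against 0.563 to 1.78 with a median of 0.971 over all kept bins. It was above 1 in 18 member bins (36.7%) and in 40.9% of all bins.

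ENP2 had 168 contacts with the other members against 146.4 expected, with mean O/E of 1.12 in map 1 and 1.17 in map 2. NOP58, a core box C/D snoRNP protein, had 125 against 109.5 expected (O/E 1.15 and 1.32), and RLP24, a large subunit factor that lies 15.9 kb from the centromere of XII, had 131 against 124.8 (O/E 1.17 and 1.1). NOG1, a GTPase of large subunit maturation, had 107 against 95.07 (O/E 1.22 and 1.03), and NOP15 had 122 against 112.5 (O/E 1.24 and 0.975). The first 4 of these were above 1 in both maps. Their ratios with all other kept bins were 1.07 for ENP2, 0.992 for NOP58, 0.961 for RLP24, 0.922 for NOG1 and 1.06 for NOP15. NOP13 stood out on this second measure, with a ratio of 1.25 with non-member bins and 1.09 with members.

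In the lower tail, a direction added after the values were seen, 4 of 49 member bins were called, against 6.91% of 1086 bins. MAK5, a helicase of large subunit assembly, had 94 contacts with members against 130.2 expected (O/E 0.661 in map 1 and 0.821 in map 2, adjusted p = 0.0151, exact Poisson test). BRX1, a large subunit factor, had 100 against 133.5 expected (O/E 0.616 and 0.898). NOP4, which binds RNA in the large subunit precursor, had 120 against 153.6 expected (O/E 0.803 and 0.683). RPA12 had 157 against 196.8 expected (O/E 0.876 and 0.75). Ratios with non-member bins were also below 1 for all 4 genes, 0.865 for MAK5, 0.875 for BRX1, 0.901 for NOP4 and 0.963 for RPA12. After the maps were balanced on contacts between chromosomes alone, 0 of the 49 member bins and 2 of 1086 bins were called as lower. The share of called members lay near that of all bins under both balances. The 4 calls were 0 with map 2 alone, against 9 of 1086 bins, and 1, BRX1, with map 1 alone, against 16. They were 2, MAK5 and NOP4, with finer strata, against 49 of 1086 bins. With genes placed by their start they were 2, MAK5 and BRX1, against 59.

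**Figure D3:**
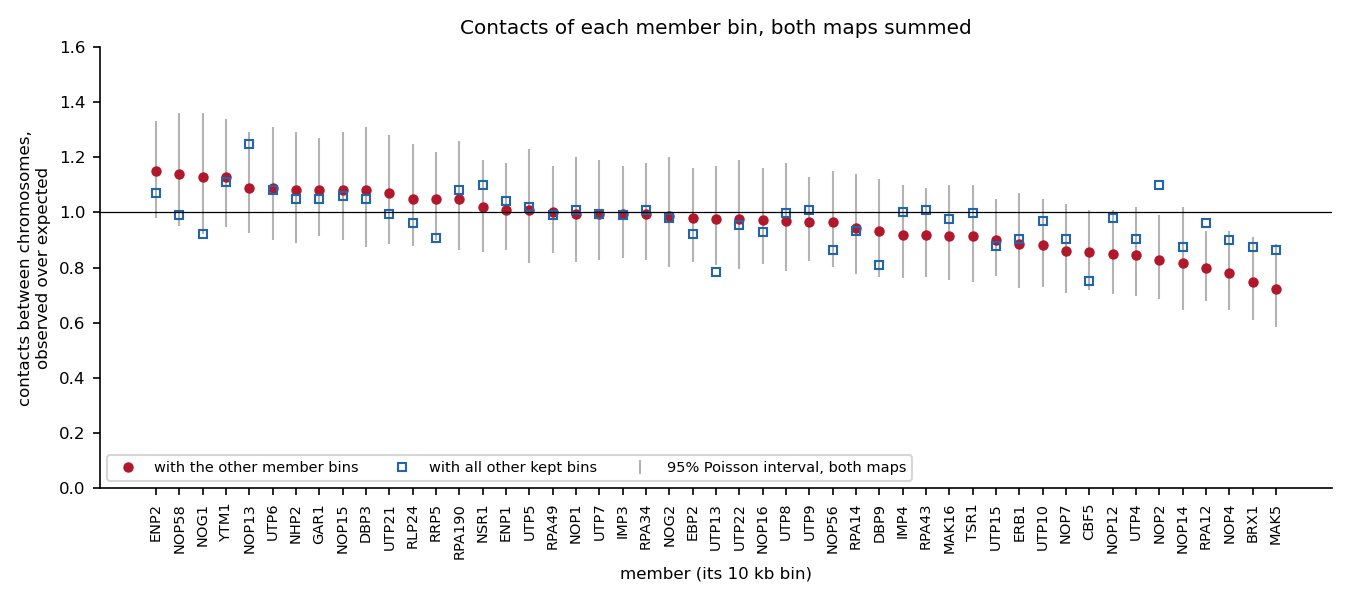
Observed over expected contacts between chromosomes for each of the 49 kept member bins, both maps summed: circles give contacts with the other member bins with a 95% Poisson interval, and open squares those with all other kept bins. Ratios with members run from 1.15 for ENP2 to 0.722 for MAK5.

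Among the 84 bins of other ribosome biogenesis genes, 3 were called as higher for contacts with the member bins, against 2.58% of all bins. They hold KRE33, an rRNA acetyltransferase (143 contacts against 105.7 expected), RPC10, a subunit shared by the RNA polymerases (138 against 103.4), and HAS1, a DEAD-box helicase (185 against 141.9). A further 10 were called as lower, against 6.91% of all bins, with SPB1, an rRNA methyltransferase gene on chromosome III, at 89 against 158.2. With the balance between chromosomes none of these 3 was called as higher, and UTP23 was called in their place. That was 1 of the 84 bins, against 6 of 1086 bins in all. In the lower tail 0 of the 84 were called with that balance, against 2 of 1086.

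The members beside centromeres formed the clearest contacts between chromosomes. The bins of UTP20, NOP16, MPP10 and RLP7 hold the centromeres of II, V, X and XIV. Relative to the mean signal between chromosomes, the 6 pairs of these bins averaged 20.2 ± 0.829 (SD, n = 2 maps), with single pairs between 15.8 and 23.8. The other 114 pairs of centromere bins averaged 20.2 ± 0.235, with single pairs between 12.2 and 30.8, so the 6 member pairs were at the level of centromere bins in general.

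UTP20 encodes a large component of the processome and MPP10 the scaffold of the Mpp10 complex. Their bins had 30 contacts in map 1 and 42 in map 2 against 30.8 expected over both in their stratum, which takes in all bins less than 20 kb from a centromere. UTP20 with RLP7 had 41 and 34 contacts against 35, NOP16 with MPP10 38 and 36 against 34.5, and MPP10 with RLP7 43 and 23 against 31.8. These 4 pairs were called where no filter on bins was applied (4 of 1416 member pairs, against 0.0827% of 660159 pairs). Without the filter 4 of 56 member bins were called as higher for contacts with members, against 5.52% of 1195 bins, and they were the same 4 bins with centromeres. MPP10 had 369 contacts with members against 275.9 expected, RLP7 367 against 303.5, and UTP20 363 against 303.5. RPA135, the gene of the second largest subunit, at 23.4 kb from the centromere of XVI, had 186 against 255.1 and was called as lower. In that setting 3 of 56 member bins were called as lower, against 112 of 1195 bins.

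The rDNA is the template of the polymerase and the site where these proteins act, and its repeats are represented in the reference between positions 451575 and 489469 of XII. The bins on either side, 440001 to 450000 (left) and 490001 to 500000 (right), were set against the 43 kept members on other chromosomes. The right bin did not itself pass the filter, with 52.6% of partners having a value in map 1 and 49.2% in map 2. Over both bins the members averaged 1.05 in map 1 and 1.32 in map 2, a mean of 1.18 ± 0.19 (SD, n = 2 maps), with 192 contacts against 163.1 expected, a ratio of 1.18 (95% Poisson interval 1.02 to 1.36). The left bin gave 1.05 and 1.1 (82 contacts against 77.36 expected), and the right bin 1.05 and 1.54 (110 against 85.71). The excess lay mainly in map 2 of the right bin, and the mean differed from 1 by less than the spread between maps. With no filter on bins the mean was 1.06. The median over both flanks was 1.03 for members, against 0.784 over all kept bins off XII. A two-sided exact Poisson test called 0 of 86 pairs of a member and a flank, against 0% of 1981 pairs of all kept bins. At an unadjusted p under 0.05 there were 3 member pairs (3.49%) and 34 pairs overall (1.72%).

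Those 3 pairs were YTM1 with the right flank (3 and 6 contacts against 3.2 expected over both maps), RPA190 with the left flank (4 and 2 against 1.85) and UTP5 with the right flank (4 and 3 against 2.77). The bin of YTM1 is the one with the TetO array, whose part in this value was not tested. The 5 highest of the 9 members above 1 in both maps over both flanks were UTP5 with 11 contacts against 4.49 expected, UTP15 with 8 against 3.84, RPA190 with 8 against 4.82, BRX1 with 5 against 2.84 and NOP13 with 9 against 5.2. With finer strata mean O/E fell from 2.42 to 1.76 for UTP5 and from 2.13 to 1.6 for UTP15. With the balance between chromosomes it fell from 1.74 to 1.38 for NOP13. With 1 expectation for all bins it rose to 3.68 for UTP5, 2.55 for RPA190 and 2.34 for NOP13, and fell to 1.59 for UTP15. UTP5 and UTP15 are UtpA proteins, a complex that binds the start of the nascent transcript. The 12 members below 1 in both maps included ERB1, NOP16 and UTP10, with no contact against 1.67, 2.74 and 4.16 expected, though ERB1 had an O/E of 0.506 with genes placed by their start. UTP10 is also a UtpA gene, so genes of 1 complex stood at both ends.

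**Figure D4:**
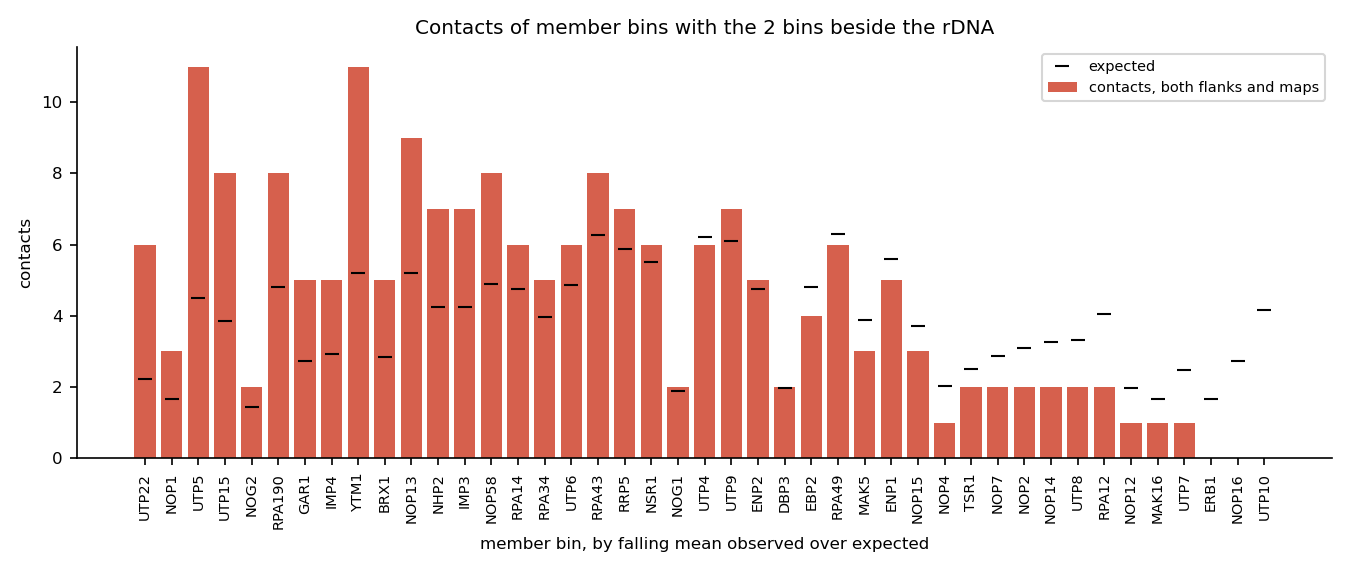
Contacts of each of 43 member bins with the bins beside the rDNA, summed over both flanks and both maps (bars), with the expected number as a dash, ordered by mean observed over expected. Bars run from 11 contacts for UTP5 and YTM1 to 0 for ERB1, NOP16 and UTP10.

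On chromosome XII itself the kept members lie on both sides of the rDNA. Within chromosomes the expectation was the mean signal at the same distance over all chromosomes, for pairs at least 20 kb apart. RLP24, on the centromere side of the rDNA, had 0 contacts in both maps with CBF5, the pseudouridine synthase of the H/ACA snoRNPs, beyond the rDNA, against 8.83 expected, with an upper 95% limit of 0.418 on the ratio. It also had 0 with NOP56 against 6.7 expected and 0 with DBP9 against 4.88, and it had 1 each with UTP13 and UTP21 against 5.98 and 3.98. The 5 member pairs across the rDNA averaged 0 in map 1 and 0.168 in map 2, against 0.636 and 0.63 over 1484 pairs of kept bins across it. All 5 hold the bin of RLP24, which lies 15.9 kb from the centromere of XII. The expectation used distance alone, and the parts of the rDNA and of the centromere in these values were not tested. CBF5 had 7 contacts with the left flank, across the rDNA and 60 kb away in the reference, against 82.8 expected, and 1470 with the right flank, the bin next to its own, against 1496 expected. RLP24 had 21 contacts with the left flank against 8.24 expected and 0 with the right flank against 7.24.

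Beyond the rDNA the 5 members CBF5, NOP56, UTP13, DBP9 and UTP21 formed 10 pairs, of which 9 were above 1 in both maps, with a mean of 1.5 ± 0.188 (SD, n = 2 maps). All 783 pairs of kept bins between CBF5 and UTP21 averaged 1.36 ± 0.00997, so the difference from their surroundings was within the spread between maps. On the right arm of XV, the 5 pairs of YTM1, NOP58, RPA43 and RPA190 were all above 1 in both maps, with a mean of 1.45 ± 0.0136, against 1.16 ± 0.0133 over the 78 pairs of kept bins between YTM1 and RPA190. These 2 sets were picked after their values were seen, and their differences were not tested. The part of the TetO repeats, in the bin of YTM1, in the values on XV was also not tested.

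Over all 99 member pairs within chromosomes, O/E was 0.937 in map 1 and 1.1 in map 2, a mean of 1.02 ± 0.114 (SD, n = 2 maps), with 2783 contacts against 2830 expected. The 58 pairs on 1 arm averaged 1.06 and 1.08, against 0.955 and 0.959 over all pairs of that kind. In whole contacts these member pairs showed no excess. They held 2605 against 2647.5 expected, a ratio of 0.984 (Poisson interval 0.947 to 1.02), against 0.99 over all such pairs. The 36 pairs across a centromere averaged 0.864 and 1.26, against 1.09 and 1.08. Their ratio in whole contacts was 1.15 (Poisson interval 0.99 to 1.34), against 1.09 over all such pairs. The direction of both differences thus depended on the measure. A one-sided exact Poisson test called 7 of 99 member pairs as higher, against 4.56% of 43834 pairs, and all 7 were above 1 in both maps. With map 1 alone 1 member pair was called, against 905 of all 43834 pairs. With map 2 alone 2 member pairs were called, against 772 of all pairs. With the expectation taken at the same distance on the same chromosome, CBF5 with NOP56 (O/E 1.14) and NHP2 with RPA14 (O/E 3.11) were no longer called. Other member pairs were called in their place, so the count stayed at 7, against 1690 of 43834 pairs.

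CBF5 with DBP9, 190 kb apart on XII, had 13 contacts in map 1 and 20 in map 2 against 15.5 expected over both (O/E 1.62 and 2.66, adjusted p = 0.00343, exact Poisson test). UTP5 with UTP6, of UtpA and UtpB, lay 90 kb apart on IV and had 17 and 25 contacts against 23.5. YTM1 with RPA43, 120 kb apart on XV, had 18 and 23 against 23.1, and it was no longer called where genes were placed by their start (O/E 1.44). The bin of YTM1 holds the TetO repeats, whose part in this pair was not tested. NOP2 with NOG2, an rRNA methyltransferase and a GTPase gene across the centromere of XIV, had 11 and 10 against 9.69, and their bins share sequence of 50 bases or more. IMP3 with UTP9, 100 kb apart on VIII, had 34 and 19 against 34.5. CBF5 with NOP56, 40 kb apart, had 117 and 115 against 189. NHP2 with RPA14, 680 kb apart across the centromere of IV, had the highest O/E, 2.4 and 3.7, from 4 and 6 contacts against 3.29. The 5 highest by O/E were this pair, NOP2 with NOG2, CBF5 with DBP9, NHP2 with UTP4 (9 contacts against 3.51) and NOP56 with UTP21 (11 against 5.18). UTP4 is a UtpA gene, UTP21 a UtpB gene and NHP2 an H/ACA snoRNP gene, so the highest pairs did not come from 1 complex.

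In the lower tail, also added after the values were seen, 6 of 99 member pairs were called, against 4.67% of 43834 pairs. With map 2 alone 2 were called, against 431 of all 43834 pairs, and with map 1 alone 3, against 491. With no filter on bins 11 of 122 were called, against 3105 of all pairs in that setting. The 6 were RLP24 with CBF5 and with NOP56 across the rDNA, NOP16 with UTP7, ENP2 with NSR1, IMP4 with NOP2 and NOP7 with UTP8. NOP16, in the centromere bin of V, had 1 contact with UTP7 at 170 kb against 14.3 expected. ENP2 with NSR1, 20 kb apart, had 226 and 201 contacts against 536 expected over both maps. IMP4 with NOP2, 30 kb apart, had 98 and 93 against 272, and NOP7 with UTP8, 50 kb apart, had 20 and 24 against 76.5. NOP1, the box C/D methyltransferase gene 21.9 kb from the centromere of IV, had no contact with UTP4, UTP5 or UTP6 on the other arm, against 4.57, 2.88 and 3.05 expected, and none of these 3 pairs was called.

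**Figure D5:**
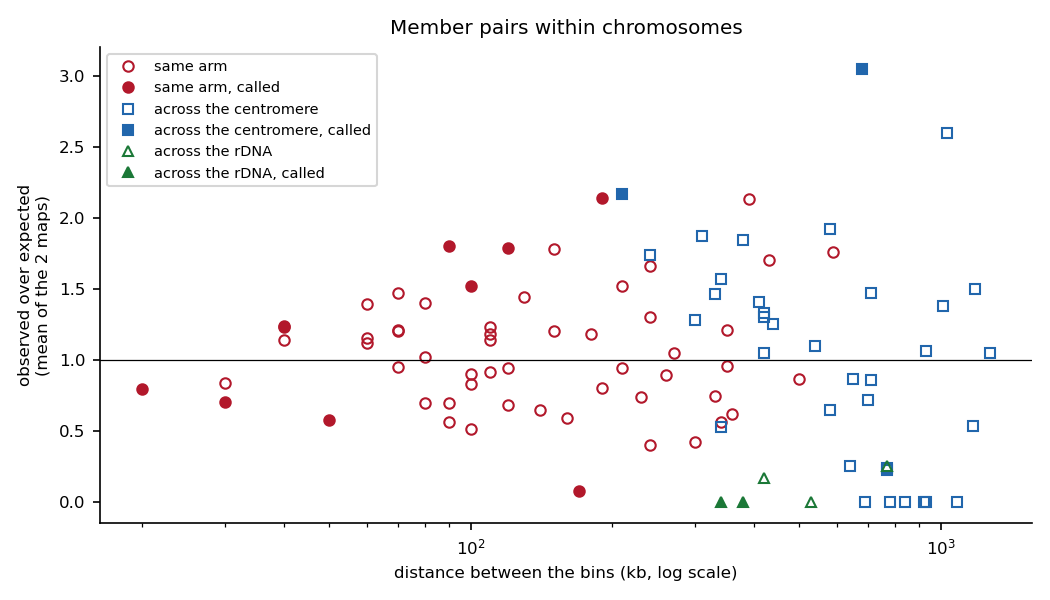
Observed over expected (mean of the 2 maps) of the 99 member pairs within chromosomes against the distance between their bins (kb, log scale), for pairs on 1 arm (circles), across a centromere (squares) and across the rDNA (triangles), with called pairs filled. Pairs across the rDNA lie between 0 and 0.25, and NHP2 with RPA14 is highest at 3.05.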

How the data were processed

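The maps were made by the authors with HiC-Pro on the sacCer3 build, from libraries described as biological replicates. The deposited signal gives how often 2 bins of 10 kb were in contact, after iterative correction (ICE), which gives every bin the same total and so removes differences in coverage. Bin factors were recovered from the deposited signal, and 100% of values times both factors were whole contacts to within 0.01, so contacts and exact Poisson intervals could be given. Intervals cover counting error only, and the p-values compare loci within these maps, not cultures. Strata had edges at 0, 20, 50, 100, 200, 300 and 500 kb from the centromere, and O/E was computed in each map on its own. The main tests and the Poisson intervals used contacts and expectations summed over both maps. The stratum mean stands in place of sampled bins. Tests used Benjamini-Hochberg adjustment over all pairs or bins at 0.05 (Python 3.11.15, numpy 2.4.6, scipy 1.17.1). They were also run on simulated Poisson counts drawn from the fitted expectations. That run cannot show whether counts in these maps spread more widely than Poisson counts. For contacts with member bins, 113 of 1086 bins had an unadjusted p under 0.05 in the upper tail and 222 in the lower tail (exact Poisson test). Named pairs were the 10 highest and 5 lowest between chromosomes, the 5 highest and 3 lowest within chromosomes and with the flanks, if both maps lay on 1 side of 1, the 5 highest and 3 lowest members, and every called one. Members and lists were chosen with earlier results of these data known. Alternatives changed the filter, balance, strata, expectation within chromosomes (same distance on the same chromosome), bin of the gene, summary, shared sequence and replicate.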

Additional observations from a re-analysis of the deposited data

How the results depend on the processing

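The mean O/E between chromosomes, 0.967, was 1.02 with the balance on contacts between chromosomes alone and 0.807 as a median over pairs, where the median was 0.847 over all kept pairs and 0.822 for members with other bins, and ran from 0.937 to 0.997 with 1 map left out. That with other ribosome biogenesis genes, 0.938, was 0.976 with that balance, 0.953 with genes placed by their start and 0.791 as a median, and ran from 0.933 to 0.943 with 1 map left out. The count of 0 member pairs called between chromosomes was 4 of 1416 with no filter on bins, against 546 of 660159 pairs. With 1 expectation for all pairs it was 6 of 1076, against 6587 of all 544303 pairs. Of these 6, 4 joined NOP16, NOP1, RLP24 or MAK16 with each other, all within 51 kb of a centromere. The count of 0 member bins called as higher was 4 with no filter, and 4 were called in the lower tail of that test. The 7 pairs called within chromosomes were 1 to 2 with 1 map left out, so these calls rest on both maps together. Over all 43834 pairs the 1998 calls were 772 and 905 with 1 map left out. The other settings left the counts of higher calls and the means named here within 1.5 times or within the SD between maps. In the lower tail the 4 bins were 0 and 1 with 1 map left out, 0 with the balance between chromosomes, and 2 both with finer strata and with genes placed by their start. The 6 lower pairs within chromosomes were 2 and 3 with 1 map left out and 11 with no filter. Of 357 values of 49 single genes and pairs under the alternatives that bear on them, 23 moved by more than the SD between maps and 38 were no longer called. No called value changed side of 1, but 8 others did, such as DBP9 with ERB1 (0.769) and NOP7 with ERB1 (1.72) with genes placed by their start. No paired analysis was possible because only 1 group has maps here. A pair between chromosomes holds 2.83 contacts on average among members, which limits what single pairs can show.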
